A study of Mus musculus with 6 samples.

Results

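The genes described here encode the machinery of mitosis and of the passage from G2 into M phase. They were chosen by name as 35 genes in 6 classes, which are cyclins with Cdk1 and the Cdc25 phosphatases, mitotic kinases with the passenger proteins, the spindle checkpoint with the anaphase-promoting complex, kinesins and spindle proteins, centromere and kinetochore proteins, and transcription factors with chromatin proteins. Every probe set whose annotated symbol was one of these names alone was read, which gave 74 probe sets of 34 genes, and the probe set with the highest mean over the 6 arrays stands for each gene. Ccnb1, cyclin B1, had no such probe set and was not analysed here. The 34 genes were all among the 12899 genes whose probe sets were bright enough to be tested.

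In a dividing cell, Cdk1 bound to cyclin B drives entry into mitosis once Cdc25 phosphatases remove its inhibitory phosphates. Plk1 and the Aurora kinases then build the spindle, the checkpoint proteins hold anaphase until every kinetochore is attached, and Cdc20 activates the anaphase-promoting complex, which marks cyclins for destruction. Transcripts of this machinery peak in G2 and M phase, so in an embryonic eye they come mainly from dividing retinal progenitors and from dividing cells of the surrounding mesenchyme and other tissues.

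Affymetrix mouse expression arrays were hybridised with RNA from posterior eye segments of mouse embryos at 15.5 days post coitum. There were 3 WT arrays and 3 arrays of Oa1-/- embryos, which lack Oa1 (now Gpr143), a G protein-coupled receptor of pigment cell organelles. Each array came from 1 dam, with the eyes of 6 of its embryos pooled, so that a replicate is a litter pool, and the labels name no strain or embryo sex and do not say how much of the gene is deleted. The comparison asks which transcripts of the embryonic eye differ in level when the receptor is missing.

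All values are signals, the brightness that the MAS5 software assigns to a probe set on a linear scale, and changes are Oa1-/- minus WT on the log2(signal + 16) scale. Gpr143 itself read 250, 257 and 246 in WT against 28.3, 39.1 and 6.02 in Oa1-/-. The highest of 27 bacterial control probe sets, which have no target in mouse RNA, read between 22.1 and 39.3 on the 6 arrays. On Oa1-/- replicates 1, 2 and 3 it read 22.1, 26.5 and 39.3, so Gpr143 lay above it on replicates 1 and 2. WT replicate 3 stood apart in Y-linked signal, with Eif2s3y at 9.26 against at least 406 on every other array. Oa1-/- replicate 1 stood apart on the first principal component, and its 18S ribosomal RNA control (the 3' probe set) read 6348, against 2618 and 2608 on the other Oa1-/- arrays and 1476 to 1988 in WT. The retinal factor Pax6 read between 10026 and 11541 and the neurogenic factor Atoh7 between 13532 and 15864, while the lens crystallin Cryaa read 19548 to 24690 although the anterior segments had been cut away.

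The promoters of these genes share letters that the choice by name did not use. Many G2/M genes carry a cell cycle genes homology region, written TTTGAA or TTCGAA, which is read by the DREAM and MuvB complexes, and upstream CCAAT boxes read by NF-Y. RefSeq windows (GRCm38.p6) from 250 bases before to 50 bases after the gene's start were held for 28 of the 35 genes, the others being Ccna2, Cdc25c, Aurkb, Incenp, Kif20a, Tpx2 and Foxm1. On either strand, TTTGAA or TTCGAA was present in 20 of the 28 windows (71.4%), against 19.4% of the windows of 27025 genes. It lay within 50 bases of the start in 19 of the 28 (67.9%), against 5.29% of all genes. CCAAT was present in 22 of the 28 (78.6%), against 37.9%, and both motifs in 19 (67.9%), against 7.70%. These matches describe letters and were not tested for binding. The windows of 4 genes are shown, Plk1 and Hmgb2 because their signals did not overlap between the genotypes, and Cdk1 and Ccnb2 because they form the core of the mitotic kinase. Capitals mark TTTGAA and CCAAT or their reverse complements, TTCAAA and ATTGG.
Plk1, chr7:122159185-122159484, plus strand: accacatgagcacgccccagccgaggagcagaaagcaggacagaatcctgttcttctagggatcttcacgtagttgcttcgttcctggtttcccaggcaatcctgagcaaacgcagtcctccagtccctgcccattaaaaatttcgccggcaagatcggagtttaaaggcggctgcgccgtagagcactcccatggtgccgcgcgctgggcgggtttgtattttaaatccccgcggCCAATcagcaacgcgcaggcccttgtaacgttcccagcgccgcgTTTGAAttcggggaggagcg
Hmgb2, chr8:57511593-57511892, plus strand: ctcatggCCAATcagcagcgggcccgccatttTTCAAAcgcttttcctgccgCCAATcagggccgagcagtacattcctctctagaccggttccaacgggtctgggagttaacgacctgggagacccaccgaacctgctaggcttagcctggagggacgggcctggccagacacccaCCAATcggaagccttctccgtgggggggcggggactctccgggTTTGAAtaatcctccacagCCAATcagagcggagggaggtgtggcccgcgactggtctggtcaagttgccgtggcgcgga
Cdk1, chr10:69352863-69353162, minus strand: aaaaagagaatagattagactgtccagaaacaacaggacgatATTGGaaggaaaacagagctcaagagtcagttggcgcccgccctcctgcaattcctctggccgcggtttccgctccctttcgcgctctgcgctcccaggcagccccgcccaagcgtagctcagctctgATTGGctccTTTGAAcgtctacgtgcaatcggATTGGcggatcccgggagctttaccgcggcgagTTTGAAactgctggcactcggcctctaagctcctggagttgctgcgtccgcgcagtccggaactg
Ccnb2, chr9:70421505-70421804, minus strand: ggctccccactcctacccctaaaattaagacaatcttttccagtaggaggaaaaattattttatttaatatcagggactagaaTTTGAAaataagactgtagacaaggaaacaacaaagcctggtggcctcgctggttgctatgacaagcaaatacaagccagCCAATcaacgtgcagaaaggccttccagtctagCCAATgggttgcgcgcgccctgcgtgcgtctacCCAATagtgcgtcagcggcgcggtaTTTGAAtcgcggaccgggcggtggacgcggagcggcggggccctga
Counting the gene's start as position 1, with no position 0, TTTGAA began at position 31 in Plk1, -30 in Hmgb2, -15 in Cdk1 and 5 in Ccnb2. Each of the windows shown had a CCAAT box upstream of it, the nearest beginning at -14 in Plk1, -73 in Hmgb2, -48 in Cdk1 and -21 in Ccnb2.

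No mitosis gene passed the test of the genotypes. In limma, 0 of the 34 genes had an adjusted p below 0.05, where the background over all genes, 1 probe set each, was 0.0% called. The missing receptor was not called either, since Gpr143 had a change of -2.82 (SE 0.33) and an adjusted p of 0.287, so that 0 calls with 3 arrays per genotype does not show equal levels. At an unadjusted p below 0.05 there was 1 gene, Hmgb2, which is 2.94% of the 34 against 3.62% of all genes. The mean was higher in Oa1-/- for 15 genes (44.1%, against 50.8% of all genes) and lower for 19, and the median change was -0.0084, against 0.0027 over all 12899 genes. That lean had no fixed sign, since with each array centred on its median 19 genes were higher and the median change was 0.023. Changes were small in both directions, between -0.25 for Cdc25c and 0.30 for Hmgb2, with 25 of the 34 under 0.1 in size (73.5%, against 52.8% of all genes). None reached 0.5 in size, which 1.36% of all genes did, and 2 reached 0.2, against 18.5% of all genes.

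The intervals give the precision of each gene's change, taken 1 gene at a time. They do not give the size of difference that the adjusted test would have called. The half-width of the 95% interval of a gene's change ran from 0.15 for Incenp to 0.44 for Foxm1, with a median of 0.23. Of the 34 intervals, 31 lay wholly within 0.5 on either side of 0, a 1.41-fold difference, and 33 contained 0. The lowest bound of all was -0.53, for Ccnf, and the highest 0.52, for Hmgb2. The spread between arrays of the same genotype had a median SD of 0.11 on the log2 scale, against 0.15 over all genes. The median mitosis gene was brighter than 77.1% of the genes tested. In tissue of many cell types, fewer dividing cells and less RNA per dividing cell cannot be told apart, and neither can a change in one cell type that is offset in another.

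**Figure D1:**
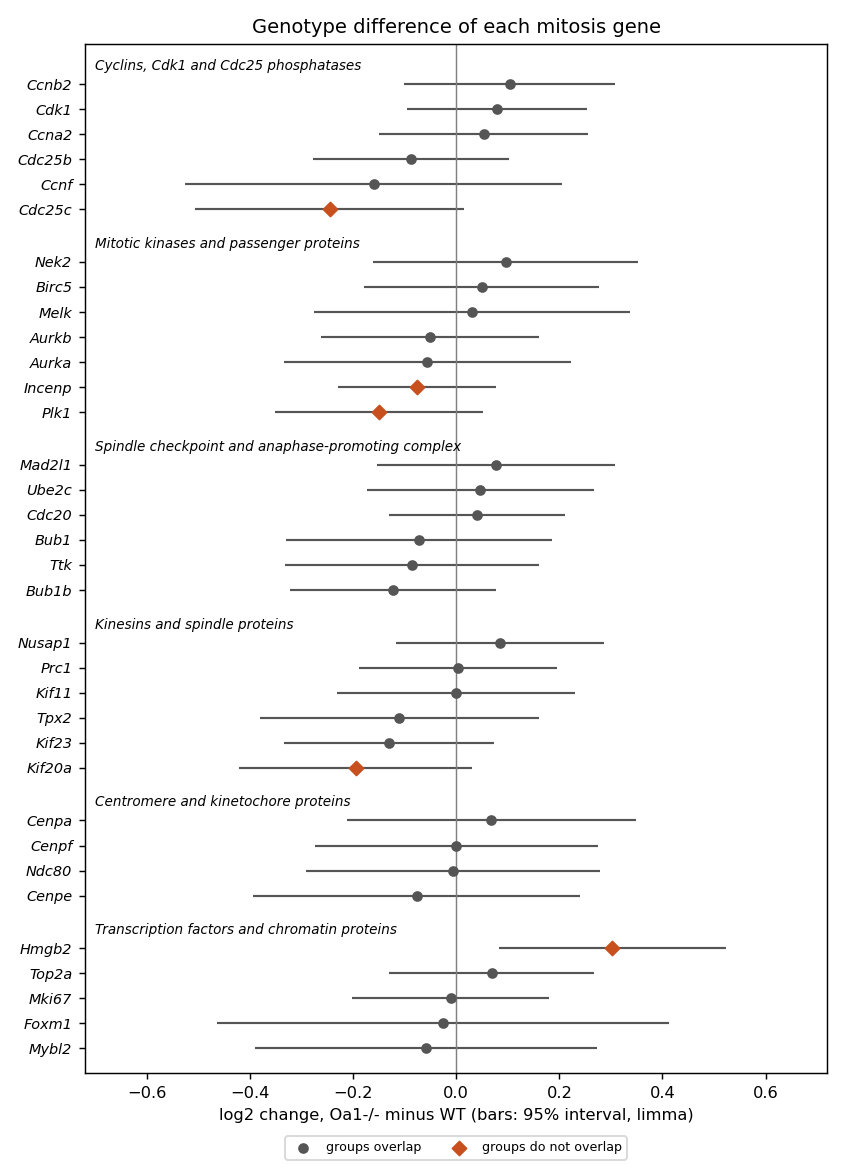
The log2 change of each of the 34 mitosis genes, Oa1-/- minus WT, is plotted by class, with bars for the 95% interval from limma that are not adjusted for the number of genes. The bar of Hmgb2 alone leaves out 0, and diamonds mark the 5 genes whose 3 Oa1-/- arrays do not overlap the 3 WT arrays.

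Between the genotypes, 5 of the 34 genes did not overlap (14.7%), where the background was 10.8% of all genes. These were Hmgb2, higher in Oa1-/-, and Cdc25c, Kif20a, Plk1 and Incenp, lower. In one direction at a time, 1 of the 34 genes was higher, a smaller share than the 5.48% of all genes. Lower were 4 of the 34, a larger share than the 5.3% of all genes. These counts were not tested. For each of the 5 the exact permutation p was 0.1, two-sided, the smallest that 3 arrays against 3 can give.

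Cyclins, Cdk1 and the Cdc25 phosphatases had 3 genes with a higher and 3 with a lower mean, a median change of -0.018 and 0 genes past the threshold. Cdk1, the kinase that drives entry into mitosis, read 4092, 3753 and 4095 in WT against 4442, 4120 and 4059 in Oa1-/-. Its groups overlapped, and the change was 0.080 (SE 0.076, 95% interval -0.095 to 0.25). Ccnb2, cyclin B2, a partner of Cdk1, read 2191, 2060 and 1996 in WT against 2432, 2241 and 2053 in Oa1-/-. Only Oa1-/- replicates 1 and 2 lay above all WT arrays, and the change was 0.10 (SE 0.089, interval -0.10 to 0.31).

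Within the same class the genes with lower means were the phosphatases and cyclin F. Cdc25c, a phosphatase that activates Cdk1, read 562, 515 and 591 in WT against 463, 497 and 439 in Oa1-/-. Every Oa1-/- array lay below every WT array, by at least the gap from 515 to 497. The change was -0.25 (SE 0.11, unadjusted p = 0.062 and adjusted p = 0.985 in limma). A second Cdc25c probe set had a change of -0.27 but overlapped, since Oa1-/- replicate 3 read 408 there, the highest of the 6 arrays, and Oa1-/- replicate 1 read 238. Ccnf, cyclin F, which is part of an SCF ubiquitin ligase, read 550, 400 and 495 in WT against 368, 489 and 429 in Oa1-/-, with overlapping groups and a change of -0.16 (SE 0.16). Its sign was not stable, with 0.079 on the second Ccnf probe set and 0.096 when arrays were weighted by quality. Cdc25b, the phosphatase thought to start Cdk1 activation, had a change of -0.088, and Ccna2, cyclin A2, one of 0.053.

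Ccna2 had a second, dimmer probe set that differed more. It read 3116, 3314 and 2973 in WT against 3860, 3703 and 3541 in Oa1-/-, so that the groups did not overlap. The change there was 0.24 (SE 0.077, unadjusted p = 0.014 and adjusted p = 0.985 in limma), while on the brightest probe set the 6 arrays lay between 4148 and 4989 with overlapping groups.

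Among mitotic kinases and passenger proteins, 3 had a higher and 4 a lower mean, with a median change of -0.051 and 0 genes past the threshold. Plk1, the polo kinase that matures centrosomes and promotes mitotic entry and exit, read 1248, 1226 and 1370 in WT against 1145, 1202 and 1113 in Oa1-/-. The groups were close but did not overlap, and the change was -0.15 (SE 0.088, interval -0.35 to 0.053, unadjusted p = 0.13 in limma). Incenp, the scaffold of the chromosomal passenger complex, read 6649, 6202 and 6667 in WT against 6168, 6165 and 6168 in Oa1-/-. There the 3 Oa1-/- arrays were nearly equal and lay just under the lowest WT array, with a change of -0.076 (SE 0.067). The other tested Incenp probe sets, all dimmer, had overlapping groups.

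The other members of that complex had overlapping groups. Aurkb, the kinase of the passenger complex, had a change of -0.051 and Birc5, survivin, its small subunit, one of 0.049. Aurka, the spindle pole kinase, had -0.056 and Melk, a kinase of proliferating progenitors, 0.030. Nek2, which helps to separate the centrosomes, read 1690, 1594 and 1431 in WT against 1931, 1557 and 1569 in Oa1-/-. Oa1-/- replicate 1 was the highest of the 6 arrays, and without it the change was -0.0047, against 0.096 with it.

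The spindle checkpoint and the anaphase-promoting complex split evenly, with 3 genes higher, 3 lower, a median change of -0.016 and 0 genes past the threshold. Bub1b, the checkpoint protein BubR1, had the smallest p of this class and read 2043, 1775 and 1956 in WT against 1729, 1859 and 1707 in Oa1-/-. Its groups overlapped, with Oa1-/- replicate 2 above WT replicate 2, and the change was -0.12 (SE 0.087, unadjusted p = 0.19 in limma). A far dimmer Bub1b probe set read 51.8, 57.6 and 75.9 in WT against 84.1, 97.0 and 81.2 in Oa1-/-, without overlap and with a change of 0.42 (SE 0.22, unadjusted p = 0.087), and the mean over all Bub1b probe sets was 0.091. The kinases Bub1 and Ttk, which act at unattached kinetochores, had changes of -0.072 and -0.086. A dimmer Bub1 probe set read 466, 423 and 419 in WT against 400, 416 and 411 in Oa1-/-. It did not overlap, and its change was -0.088 (SE 0.11). Mad2l1, the Mad2 protein that blocks Cdc20, had 0.077, Cdc20 itself 0.040 and Ube2c, the E2 enzyme that works with the anaphase-promoting complex, 0.047. The changes of Mad2l1 (SE 0.10) and its target Cdc20 (SE 0.075) were smaller than their SE, with overlapping groups for both.

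Kinesins and spindle proteins had 2 higher and 4 lower means, a median change of -0.056 and 0 genes past the threshold. Kif20a, a kinesin of the central spindle needed for cytokinesis, read 1122, 1009 and 952 in WT against 869, 939 and 875 in Oa1-/-. The groups did not overlap, and the gap between the closest arrays ran from 939 to 952. The change was -0.19 (SE 0.099, interval -0.42 to 0.031, unadjusted p = 0.082 and adjusted p = 0.985 in limma). Kif23, a kinesin of the same midzone, had a change of -0.13 and Prc1, the protein that bundles midzone microtubules, one of 0.0039. Kif11, which slides spindle poles apart, had -0.00070, Tpx2, the activator of Aurka, -0.11 and Nusap1, a spindle microtubule protein, 0.084.

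Centromere and kinetochore proteins had 2 higher and 2 lower means, a median change of -0.0028 and 0 genes past the threshold. Cenpa, the histone H3 variant of centromeres, read 3282, 2382 and 2621 in WT against 3107, 2787 and 2727 in Oa1-/-. WT replicates 1 and 2 were the highest and lowest of the 6 arrays, so the WT spread covered all Oa1-/- values, and the change was 0.068 (SE 0.12). Cenpe, a kinetochore kinesin, had a change of -0.076, Cenpf, a large kinetochore protein, one of 0.00046 and Ndc80, which binds microtubules at the outer kinetochore, one of -0.0061.

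Transcription factors and chromatin proteins held the gene with the largest change. Hmgb2, a DNA-bending chromatin protein of dividing cells, read 5499, 6075 and 4972 in WT against 7395, 6641 and 6364 in Oa1-/-. Every Oa1-/- array exceeded every WT array, and the mean was 6800 ± 534 against 5516 ± 552 (SD, n = 3 each). The change was 0.30 (SE 0.096, interval 0.083 to 0.52, unadjusted p = 0.013 and adjusted p = 0.985 in limma), so Hmgb2 was not called either. With any 1 array left out it lay between 0.23 and 0.37. The other Hmgb2 probe sets had changes of 0.13 (overlapping groups, with 5120 to 5631 in WT and 5506 to 6029 in Oa1-/-) and 0.034.

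The proliferation markers most used in tissue sections did not separate the genotypes. Mki67, the Ki-67 protein of cycling cells, read 6836, 6443 and 6267 in WT against 5862, 6800 and 6770 in Oa1-/-. Its change was -0.011 (SE 0.083, interval -0.20 to 0.18), and Oa1-/- replicate 1 was the lowest of the 6 arrays. Top2a, the topoisomerase that untangles sister chromatids, read 8549, 8484 and 8397 in WT against 8227, 8529 and 10015 in Oa1-/-, with a change of 0.069 (SE 0.087, interval -0.13 to 0.27). The WT arrays of Top2a were close together, and among the Oa1-/- arrays replicate 3 stood highest. Foxm1 and Mybl2, factors that activate G2/M genes, had changes of -0.025 and -0.059.

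**Figure D2:**
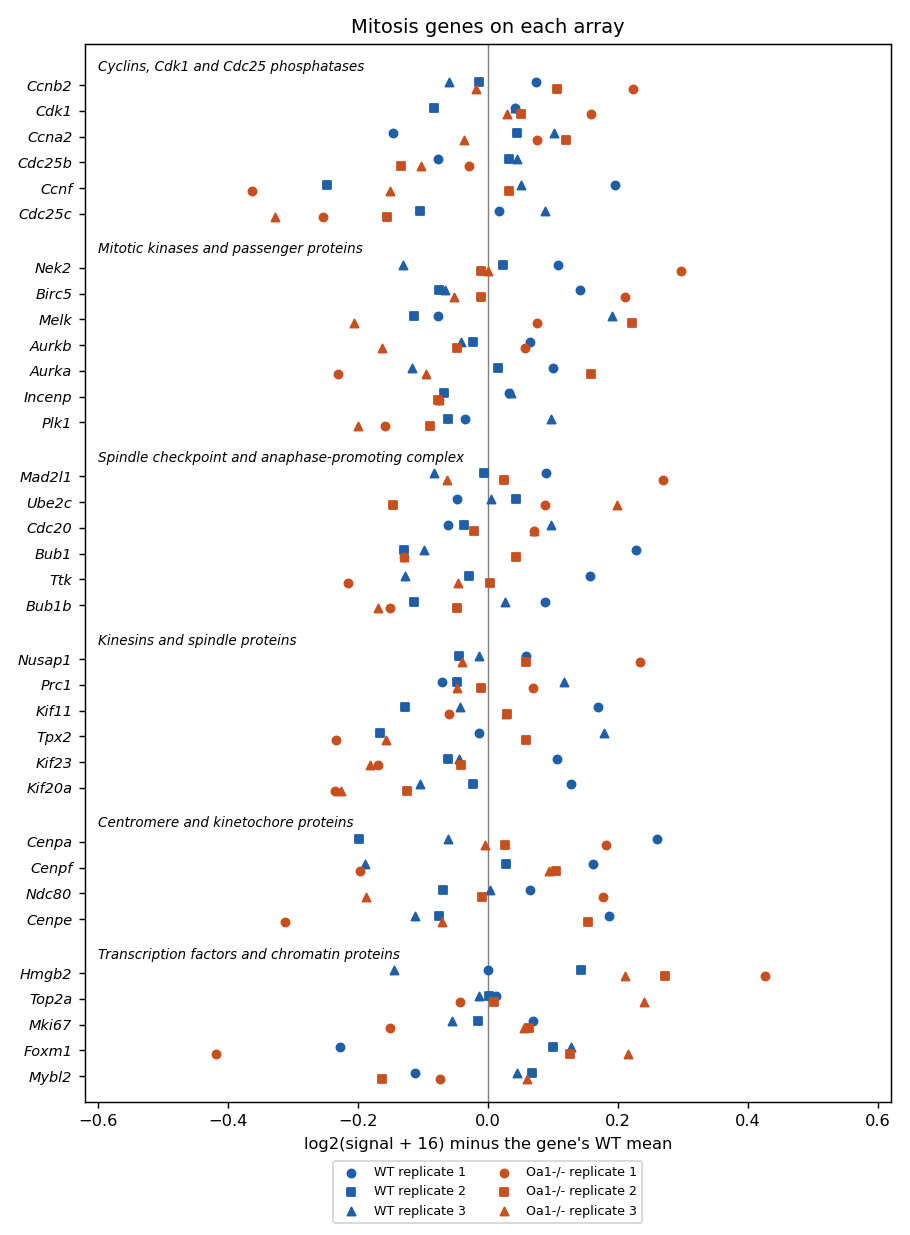
Each row is 1 of the 34 mitosis genes, and each symbol is 1 array, placed by its log2(signal + 16) minus the mean of the gene's 3 WT arrays. Blue and orange symbols intermix in most rows, and Hmgb2 has all 3 Oa1-/- arrays to the right of its WT arrays.

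No class separated the genotypes. Their median changes lay between -0.056 for kinesins and spindle proteins and -0.0028 for centromere and kinetochore proteins. With each array centred on its median, 4 of these medians were above 0, with 0.013 for cyclins, 0.015 for the checkpoint, 0.028 for centromere proteins and 0.020 for transcription factors. With arrays weighted by quality the medians were 0.083 for cyclins, 0.048 for kinesins and 0.082 for centromere proteins. With the mean over a gene's probe sets, untested ones included, they were 0.025 for kinases and -0.14 for centromere proteins. Under the same centring Kif11, Ndc80, Foxm1 and Mki67 turned sign, and under quantile normalization Kif11, Prc1, Cenpf, Ndc80 and Foxm1 did. Each class was also summarised on each array by the median of its genes' deviations from their own means over the 6 arrays. The genotypes overlapped in all 6 classes. The difference of the genotype means of these array values ran from -0.065 for kinesins and spindle proteins to 0.073 for transcription factors and chromatin proteins, with SDs within a genotype of 0.076 and 0.069. The last class depended on 1 array, since its median change was -0.011 with all arrays and 0.12 without Oa1-/- replicate 1.

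**Figure D3:**
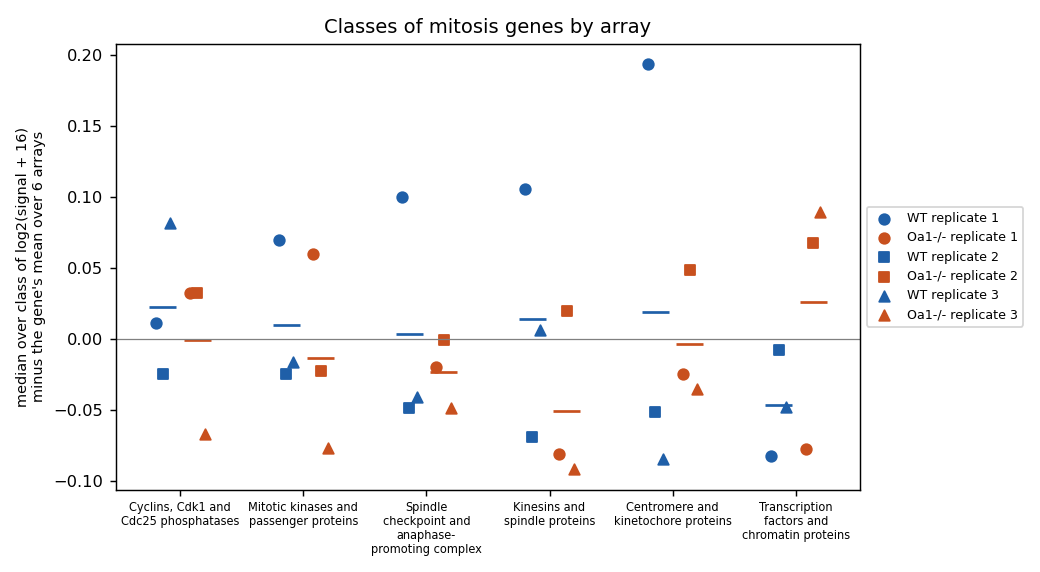
For each of the 6 classes, symbols give the median deviation of the class on each array, in log2 units from each gene's mean over the 6 arrays, and short lines give the mean of each genotype. WT and Oa1-/- arrays overlap in every class, and WT replicate 1 is the highest array in 4 of them.

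Single arrays of the same genotype differed from each other. The median deviation of the 34 genes was 0.063 on WT replicate 1, -0.032 on WT replicate 2 and -0.012 on WT replicate 3, and it was -0.041, 0.012 and -0.060 on Oa1-/- replicates 1, 2 and 3. WT replicate 1 was the highest array for 12 of the 34 genes, and Oa1-/- replicate 1 was the highest for 8 and the lowest for 11. On Oa1-/- replicate 1 the brighter genes stood higher than the dimmer ones, with a median deviation of 0.064 for the brighter and -0.10 for the dimmer part of the list, split at its median brightness. Across the 34 genes, which share that array and are not independent, the correlation of the deviation with mean brightness was 0.45, and it was 0.20 over all genes. Other arrays had such correlations too, between -0.39 on WT replicate 3 and 0.28 on Oa1-/- replicate 3 for the 34 genes. Over all genes they lay between -0.24 on Oa1-/- replicate 3 and 0.075 on WT replicate 1. The 18S ribosomal RNA controls were highest on Oa1-/- replicate 1, and their part in its deviations was not tested.

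The dimmer probe sets gave a check within genes. Of the 74 probe sets, 67 were bright enough to be tested, 28 with a higher and 39 with a lower mean in Oa1-/-, and their median change was -0.024, against -0.010 over all 27022 probe sets tested. An unadjusted p below 0.05 was found for 2 of the 67 (2.99%, against 4.1% of all probe sets), 1 each of Hmgb2 and Ccna2, and 8 of the 67 did not overlap (11.9%, against 10.2%). Of 22 genes with more than 1 tested probe set, 8 had lower means on all of them, 4 higher means on all of them and 10 had both signs. The genes higher on all were Ccna2, Hmgb2, Nek2 and Nusap1, and those lower on all were Aurkb, Bub1, Cdc25c, Cenpe, Foxm1, Incenp, Mybl2 and Ttk.

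Several dimmer probe sets were low on 1 array. Of the 33 tested beside the brightest, 12 were lowest on Oa1-/- replicate 1. The median signal of all probe sets was also lowest on that array, at 93.6 against 108 to 129 on the others. The share of all tested probe sets that were lowest there was not counted, so the 12 are not read as particular to mitosis genes. A dimmer Top2a probe set read 551, 478 and 430 in WT against 243, 407 and 449 in Oa1-/-, with a change of -0.43 where the brightest had 0.069. A dimmer Cenpa probe set read 278 on Oa1-/- replicate 1 and 383 and 488 on the others, against 394 to 595 in WT, with a change of -0.44 where the brightest had 0.068. The mean over all probe sets of the gene, untested ones included, was -0.053 for Top2a and -0.17 for Cenpa. A dimmer Incenp probe set read 137 on that array and 281 and 386 on the others. The 7 probe sets that were not tested had signals between 1.23 and 97.7, and each belonged to a gene with a brighter probe set.

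**Figure D4:**
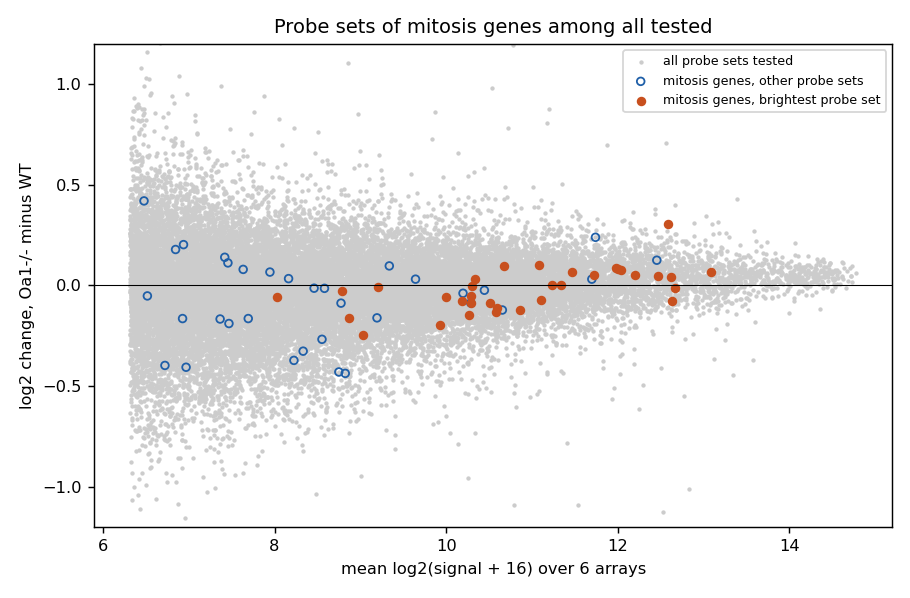
The log2 change of each tested probe set, Oa1-/- minus WT, is plotted against its mean log2(signal + 16) over 6 arrays, with 24 of all 27022 probe sets outside the axis limits of 1.2. The brightest probe sets of the 34 mitosis genes (filled) lie between -0.25 and 0.30, and their other probe sets (open) spread more at lower brightness, between -0.44 and 0.42.

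Changes were small both with and without the promoter motif. The 20 genes with TTTGAA or TTCGAA in the window had 9 higher and 11 lower means and a median change of -0.0034, within a range of -0.16 to 0.30. The 7 measured genes whose window held neither were Birc5, Nek2, Melk, Mad2l1, Nusap1, Cenpe and Mybl2, with 5 higher, 2 lower and a median of 0.049, within -0.076 to 0.096. Both Plk1, lower and not overlapping, and Hmgb2, higher and not overlapping, had TTTGAA near the start, as the windows printed above show.

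Other genes of the same processes were read from a wider list of 111 with a probe set, of which 109 were tested and Kif14 and Kif15 were too dim. Again 0 passed the threshold in limma, with 2 at an unadjusted p below 0.05 (1.83%, against 3.62% of all genes). The mean was higher for 69 (63.3%, against 50.8% of all genes) and lower for 40, and the median change was 0.033, against 0.0027 over all genes. Of the 34 genes, 44.1% were higher, so the wider list leaned the other way. Kif18a, a kinesin that aligns chromosomes at the metaphase plate, read 578, 527 and 523 in WT against 765, 631 and 868 in Oa1-/-. Its groups did not overlap, and the change was 0.45 (SE 0.13, interval 0.15 to 0.76, unadjusted p = 0.0090 and adjusted p = 0.985 in limma). Cdc25a, the phosphatase that acts on Cdk2 and Cdk1 in S and G2 phase, read 1678, 1494 and 1673 in WT against 1365, 1476 and 1345 in Oa1-/-. It did not overlap either, with a change of -0.21 (SE 0.089, unadjusted p = 0.046 in limma). Cdc25a and Cdc25c were thus lower on all Oa1-/- arrays on their brightest probe sets. The second Cdc25c probe set and Cdc25b had overlapping groups.

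The parts of that wider list also had small medians. Other checkpoint and kinetochore genes had 27 higher and 9 lower of 36, with a median of 0.064. Subunits and regulators of the anaphase-promoting complex had 9 higher and 8 lower of 17 (median 0.017), regulators of G2/M entry 8 higher and 6 lower of 14 (0.034), further kinesins, spindle and cytokinesis genes 18 higher and 14 lower of 32 (0.020), and condensin and mitotic chromatin genes 7 higher and 3 lower of 10 (0.033). In the wider list 11 of 109 genes did not overlap (10.1%, against 10.8% of all genes), 5 higher and 6 lower.

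Markers of the cells that divide at this stage were read beside these genes. Of 16 retinal progenitor markers, 14 had a probe set, 9 with a higher and 5 with a lower mean in Oa1-/-, and their summed signal was 84152 to 95425 in WT and 90874 to 95641 in Oa1-/-. Of 11 markers of young retinal neurons, which have left the cell cycle, 10 were measured, 9 higher and 1 lower, with summed signals of 45991 to 49408 in WT and 50971 to 56850 in Oa1-/-, which did not overlap. Of 12 markers of periocular mesenchyme, 11 were measured, 2 higher and 9 lower, with summed signals of 74617 to 91102 in WT and 77766 to 82788 in Oa1-/-. In these 3 lists 0 markers passed the threshold in limma, with 2 of 14, 3 of 10 and 3 of 11 at an unadjusted p below 0.05, where 3.62% of all genes were, and the lowest single signal was 59.0. The 2 of 14 were Pax6, with a change of 0.16 (SE 0.067), and the neurogenic factor Atoh7, with 0.16 (SE 0.065). The median change of the 14 progenitor markers was 0.047. Summed erythroid markers ran from 3551 on WT replicate 3 to 23152 on WT replicate 1, the array on which mitosis genes were most often highest. Most of that sum was Hbb-y, at 19360 on WT replicate 1, while Alas2 read 437 there against 595 and 580 on the other WT arrays. The erythroid sums of the Oa1-/- arrays, 6890 to 10047, lay inside the WT range. Of 4 tested erythroid markers, 0 were higher and 4 lower in Oa1-/-, 1 of them, Alas2, at an unadjusted p below 0.05 in limma. Its change was -0.42 (SE 0.17). The changes of Hbb-y (-0.019, SE 0.57), Hbb-bh1 (-0.020, SE 0.47) and Hba-x (-0.058, SE 0.88) were far smaller than their SE. Lens markers had 8 of 8 higher means with summed signals of 114050 to 151330 in WT and 139726 to 150488 in Oa1-/-, and skeletal muscle markers 6 of 6, with 3293 to 10646 and 5149 to 11453. In both lists the lowest sum was that of WT replicate 1. The lens sums of WT replicates 2 and 3, 150505 and 151330, lay above every Oa1-/- array, and their muscle sums were 8567 and 10646. Summed markers of macrophages (3417 to 3792 against 3227 to 3610), endothelium (3555 to 3727 against 3623 to 3797), pigment epithelium (29633 to 37175 against 30964 to 34040) and photoreceptor precursors (10522 to 15844 against 12308 to 13643) overlapped between WT and Oa1-/-. The part of any of these cell types in the mitosis signals was not tested.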

How the data were processed

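The authors deposited 1 MAS5 signal intensity per probe set and array, per the submitters' processing notes, which list MAS5 with no version. By its values each array had been scaled, since the mean after trimming 2% at each end was 500.002 on all 6. Of 45101 probe sets, 64 were controls, 34945 had 1 annotated symbol, 932 several and 9160 none. Symbols were checked against RefSeq (GRCm38.p6), which matched 34754 and changed 0.

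Log2(signal + 16) was computed with no further normalization. Probe sets whose mean lay above the 40th percentile were kept (27022). The genotypes were compared in R 4.3.3 with limma 3.58.1 (lmFit, eBayes with an intensity trend, no covariate), two-sided, with Benjamini-Hochberg adjustment over all kept probe sets and a threshold of 0.05, and the code was tested on simulated data. Intervals are limma's, for 1 gene at a time. The pseudocount understates changes of dim probe sets, and 3 arrays per genotype limit the precision. Detection calls were not used here.

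Values on all arrays are given for the gene with the smallest p in each class, those whose groups do not overlap or with an unadjusted p below 0.05, the 3 largest changes in each direction, and Cdk1, Mki67 and Top2a. Of the wider list, genes with an unadjusted p below 0.05 are named. The genes, classes and lists were chosen with earlier results of these data known. Other settings were tried for the pseudocount, filter, normalization, variance model, array weights, replicate block, probe set rule and arrays used.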

Additional observations from a re-analysis of the deposited data

How the results depend on the processing

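Among 17 other settings, 0 mitosis genes were called in limma, and the lowest adjusted p of any was 0.370 (array weights). Over all probe sets, 2 were called with median centring and 2 with array weights, against 0 otherwise. The replicate numbers did not pair the arrays (correlations of same-numbered deviations of -0.2944, 0.1522 and -0.2475), and the replicate block gave 0 calls. Of the 34 genes, 13 kept their sign throughout, Hmgb2, Cdc25c, Plk1, Kif20a and Incenp among them. For the rest the cause was not tested. Quantile normalization gave 0.012 for Kif11, -0.0079 for Prc1, -0.0091 for Cenpf, 0.019 for Ndc80 and 0.028 for Foxm1. Median centring gave 0.030 for Kif11, 0.025 for Ndc80, 0.0055 for Foxm1, 0.020 for Mki67 and a median of 0.064 for the wider list. Array weights gave 0.096 for Ccnf, 0.068 for Aurka, -0.00050 for Nek2, 0.061 for Bub1, -0.088 for Ube2c, 0.085 for Kif11, 0.089 for Tpx2, 0.11 for Cenpe, 0.010 for Ndc80, 0.052 for Foxm1 and 0.049 for Mki67. With these weights 22 genes were higher, and medians were 0.040 for the 34 genes, 0.083 for cyclins and 0.048 for kinesins. Without both WT replicate 3 and Oa1-/- replicate 1, values were -0.064 for Birc5, -0.070 for Nek2, -0.061 for Mad2l1, 0.0073 for Kif11, 0.040 for Tpx2, -0.020 for Cenpa, 0.23 for Foxm1, 0.032 for Mki67 and 0.12 for the transcription factor class. Means over a gene's probe sets gave 0.025 for Aurka and for the kinase class. The Aurka mean took in an untested probe set that read 3.33 to 12.2, and its tested probe set had -0.056. The same means gave 0.091 for Bub1b, -0.059 for Prc1, -0.17 for Cenpa, -0.11 for Cenpf, -0.053 for Top2a and -0.14 for the centromere class. Leaving out each array in turn gave ranges of -0.044 to 0.12 for the transcription factor class, -0.16 to 0.031 for Aurka, -0.10 to 0.0045 for Aurkb, -0.031 to 0.12 for Birc5, -0.14 to 0.042 for Bub1, -0.020 to 0.10 for Ccna2, -0.031 to 0.20 for Cenpa, -0.19 to 0.042 for Cenpe, -0.094 to 0.099 for Cenpf, -0.15 to 0.17 for Foxm1, -0.064 to 0.084 for Kif11, -0.019 to 0.15 for Mad2l1, -0.065 to 0.15 for Melk, -0.047 to 0.059 for Mki67, -0.098 to 0.084 for Ndc80, -0.0047 to 0.15 for Nek2, -0.031 to 0.063 for Prc1, -0.017 to 0.12 for Top2a and -0.029 to 0.14 for Ube2c.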
